A study of Mus musculus with 108 samples.

Results

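The genes described here are those whose kidney expression set the 129S2 strain apart from 5 other inbred strains of mice. 129S2 belongs to a family of closely related strains that gave rise to many embryonic stem cell lines, and was bought from Charles River, France. The comparison strains were C57BL/6J, A/J, AKR/J, C3HeB/FeJ and DBA2/J, all from The Jackson Laboratory, so vendor and strain cannot be told apart for 129S2. All animals were males of 11 to 14 weeks with no treatment or engineered allele named, and each strain gave 3 kidney arrays, 18 arrays in all out of a series that also covers brain, heart, liver, lung and testis. A gene was counted as apart when 129S2 differed from each of the 5 strains in the same direction, each with an adjusted p under 0.05. Of 18193 genes measured, 698 (3.84%) met this rule, 251 with 129S2 above all 5 strains and 447 with 129S2 below.

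The kidney filters blood in its glomeruli and recovers water, salts, sugars and amino acids along the tubule. Proximal tubule cells take organic anions and cations from the blood, conjugate many of them with glucuronic acid or glutathione, and pass them to the urine through ATP-driven pumps. The same cells break down peptides at their brush border, make glucose and ammonia, and burn fatty acids. Inbred strains have each fixed their own alleles and can differ in many of these functions.

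The 3 arrays of 129S2 carry the numbers 2, 3 and 4 in their titles, while the source name of array 4 gives individual 3, so arrays 3 and 4 could come from 1 animal. The SD of the difference between 2 arrays was 0.195 for 3 against 4, 0.189 for 2 against 3 and 0.166 for 2 against 4 on the log2 scale, and each 129S2 array was nearest to another 129S2 array. In the other strains this SD lay between 0.146 and 0.183. Array 3 had the lowest weight of the 18 arrays, 0.526, when arrays were weighted by their residuals. The labels also speak of pools, and nothing says more about how animals map to arrays, so p-values measure the spread between these arrays. The 9 kidney markers measured averaged 12.33 to 12.38 on the 129S2 arrays, against 4.20 to 5.64 for the markers of brain, heart, liver, lung and testis. Array medians ran from 5.79 to 5.90 over the 18 kidney arrays, and the median residual SD of a gene was 0.107.

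Against the mean of the 5 strain means, 2641 genes were higher in 129S2, 14.5% of those tested, and 2952 were lower, 16.2% (limma, Benjamini-Hochberg adjusted p under 0.05). Without array 3 these counts were 1548 and 1857. The stricter rule of standing apart from every strain left 1.38% of genes above and 2.46% below. Without array 3 the count below was 268, and with arrays 3 and 4 averaged as 1 animal the counts were 161 above and 340 below. In 236 of the 251 genes above and 411 of the 447 below, the 3 arrays of 129S2 did not overlap the 15 others. Over all genes, 3.06% had 129S2 above all 15 other arrays and 4.31% had it below. The same rule applied to each other strain in turn gave 392 above and 254 below for C57BL/6J and 245 above and 217 below for DBA2/J. A/J, AKR/J and C3HeB/FeJ had between 85 and 125 genes in either direction. 129S2 had more genes below than above, while C57BL/6J had more above, and these counts share the same arrays.

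Most of the genes that stood apart did so by a small margin. The gap between the 129S2 mean and the nearest strain mean had a median size of 0.30 log2 units, and 548 genes, 78.5%, had a gap under 0.5. A gap of at least 1, a signal at least 2-fold from the nearest strain, was reached by 11 genes above (0.0605% of genes) and 20 below (0.11%). Just inside this line were Cftr, a chloride channel, with a gap of -1.01, and Apobec2 with -1.03. Just outside it were Pik3c2g with 0.95, Fam107a with -0.95 and Dctn5, a dynactin subunit, with -0.94. C57BL/6J was the nearest strain for 194 of the 698 genes and A/J for 178.

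**Figure D1:**
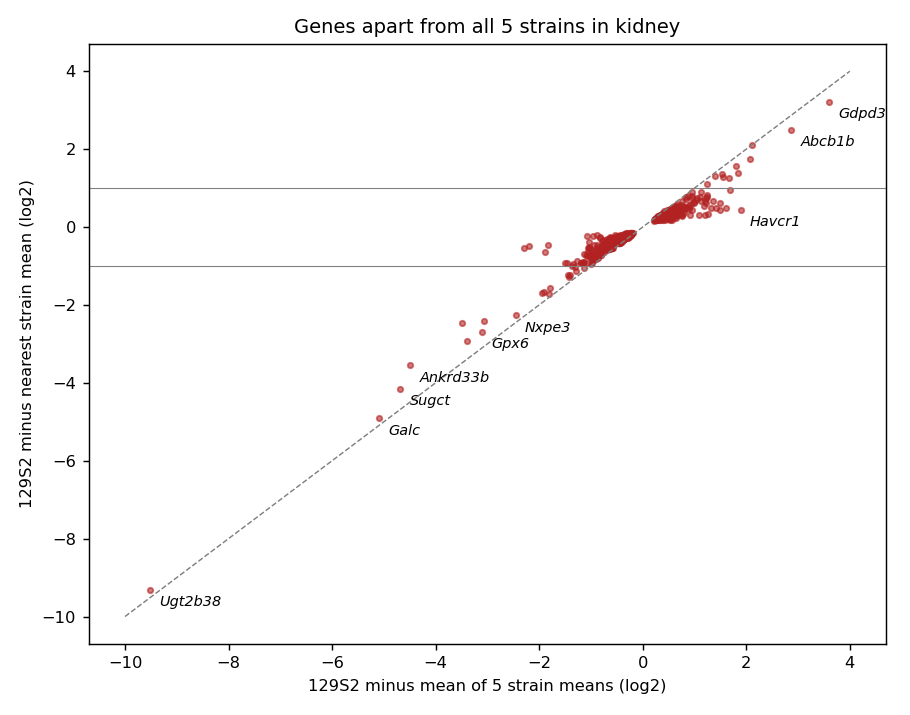
Each point is 1 of the 698 genes apart from all 5 strains in kidney; the x axis is the 129S2 mean minus the mean of the 5 strain means and the y axis the gap to the nearest strain mean, both in log2 units. Solid lines mark gaps of 1 and -1, and the dashed line marks equal values; most points lie near 0, with Ugt2b38 alone at -9.32.

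The widest gap belonged to Ugt2b38, a UDP-glucuronosyltransferase, one of the enzymes that attach glucuronic acid to steroids and drugs. Its log2 signal was 4.53, 4.48 and 4.45 on the 3 arrays of 129S2. On the 15 other arrays it ran from 13.78 to 14.24 with a median of 13.99. The other 5 strains were thus all near the top of the array's range, and 129S2 alone lay near its floor. The gap to AKR/J, the nearest strain, was -9.32, and the difference from the mean of the 5 strains was -9.51 (SE 0.0385, limma adjusted p = 8.85e-28). With one side near the floor and the other near the top, the scale is compressed at both ends and no exact fold can be read. Ugt2b38 had no second probe set. A lower transcript level and a poorer match of its probes to 129S2 RNA therefore cannot be told apart. No other UDP-glucuronosyltransferase among the 11 measured stood apart on all 18 arrays. Ugt2b37, a close relative on the same chromosome, gave 11.33, 11.18 and 11.27 in 129S2 against 10.04 to 12.73 in the others, a difference of -0.11 (SE 0.102, limma adjusted p = 0.452). Without strain C57BL/6J this difference was -0.38 (limma adjusted p = 0.00923). Ugt2b34, Ugt3a1 and Ugt3a2 were higher than the mean by 0.36, 0.28 and 0.33, and Ugt8a was lower by -0.74. The Ugt2b34 call was lost without array 4 of 129S2 or strain DBA2/J, and that of Ugt3a2 without strain AKR/J (0.03). Ugt8a stood below all strains when array 2 was left out.

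The reference promoters of Ugt2b38 and Ugt2b37 are shown because these 2 genes share most of their upstream sequence and differ in their 129S2 signal. Both come from RefSeq on GRCm38.p6, on the minus strand, from 250 bases before the start to 50 after it, at chr5:87424154-87424453 for Ugt2b38 and chr5:87254739-87255038 for Ugt2b37. Capitals mark bases that are not identical in an alignment of the pair, unaligned ends included, and 273 of 314 aligned columns, 86.9%, were identical. They are reference sequence and hold nothing read from 129S2.
Ugt2b38: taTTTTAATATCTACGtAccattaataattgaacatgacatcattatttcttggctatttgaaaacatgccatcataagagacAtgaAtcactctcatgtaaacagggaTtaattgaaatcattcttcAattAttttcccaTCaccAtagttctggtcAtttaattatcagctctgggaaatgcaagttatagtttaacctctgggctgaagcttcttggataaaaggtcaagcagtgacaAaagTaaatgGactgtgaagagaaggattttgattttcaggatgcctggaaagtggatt
Ugt2b37: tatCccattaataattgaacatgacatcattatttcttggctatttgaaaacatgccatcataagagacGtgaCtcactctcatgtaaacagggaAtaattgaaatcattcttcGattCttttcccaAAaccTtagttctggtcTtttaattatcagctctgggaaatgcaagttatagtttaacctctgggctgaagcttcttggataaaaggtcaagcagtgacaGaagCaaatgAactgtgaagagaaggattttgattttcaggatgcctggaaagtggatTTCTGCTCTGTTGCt

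The next widest gaps below the other strains included several enzymes. Galc, the lysosomal galactosylceramidase, gave 5.19, 5.28 and 4.99 in 129S2 against 10.04 to 10.50 in the others, a gap of -4.91. Its 2 further probe sets did not share this: one differed by 0.73 in the opposite direction (limma adjusted p = 0.000421) and one by 0.16 (limma adjusted p = 0.0784). Sugct, a mitochondrial CoA-transferase that acts on glutarate, gave 5.08, 5.57 and 5.53 against 9.43 to 10.70. A second Sugct probe set was lower by -0.47, and on it 129S2 was not below every strain. Ankrd33b, an ankyrin repeat protein, gave 4.75, 4.73 and 4.79 against 8.20 to 9.82, but of its 2 further probe sets one differed by 0.22 and one by -0.04. In each of these genes the 3 arrays of 129S2 lay far below all others on the main probe set. For Galc and Ankrd33b other probe sets of the gene did not follow, and for Sugct the second set moved the same way by much less.

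Stbd1, a glycogen-binding protein, gave 4.42, 4.35 and 4.33 against 7.17 to 8.07. Gpx6, a glutathione peroxidase, gave 5.74, 5.93 and 5.78 against 8.38 to 9.41. Methig1, a methyltransferase-like gene, gave 4.69, 4.68 and 4.39 against 6.91 to 9.03. None of these 3 genes had a second probe set, so a lower transcript level and a poorer match of the probes to 129S2 RNA cannot be told apart. The same holds for Snx31, Amacr, Nucb2 and Zfp931, described next. Snx31, a sorting nexin, gave 4.72, 4.61 and 5.34 against 7.12 to 9.27. Nxpe3 gave 6.28, 6.02 and 6.55 against 8.42 to 9.17, and its second probe set was lower by -0.34. Cndp2, a cytosolic dipeptidase, gave 12.14, 12.05 and 12.31 against 13.66 to 14.18. Both Cndp2 probe sets stood apart, with differences of -1.79 and -1.97 from the mean of 5 strains.

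Amacr, the racemase needed to break down branched fatty acids and bile acid precursors, gave 10.97, 10.98 and 10.79 against 12.54 to 13.02. Lars2, the mitochondrial leucyl-tRNA synthetase, gave 7.48, 7.52 and 7.76 against 9.25 to 9.61. Nucb2, the precursor of nesfatin, gave 6.42, 6.18 and 6.44 against 7.85 to 8.52. Their gaps were -1.66, -1.71 and -1.69. The remaining genes below by at least 1 unit were Esco1, a cohesin acetyltransferase (-1.28), Zfp931 (-1.24), Atpsckmt (-1.23), Tlr12 (-1.13), Lman1, a cargo receptor of the secretory pathway (-1.06), Apobec2 and Cftr. Lman1 had 4 further probe sets, all lower in 129S2, and the second set of Cftr was lower by -0.20. The second probe sets of Esco1 and Apobec2 did not follow, with 0.09 (limma adjusted p = 0.552) and -0.04 (limma adjusted p = 0.76). Of the further sets of Lars2 one was lower by -1.04 and one gave 0.01.

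Among genes above the other strains, Gdpd3, a phospholipase D-type enzyme acting on lysophospholipids, had the widest gap. It gave 11.27, 10.95 and 11.11 in 129S2 against 6.53 to 7.99 in the others. The gap to A/J was 3.21, a 9.27-fold higher signal, and the difference from the mean of 5 strains was 3.60 (SE 0.0866, limma adjusted p = 2.57e-15). Abcb1b, which encodes a P-glycoprotein drug pump, gave 8.35, 7.79 and 8.09 against 4.59 to 5.74, and its second, dim probe set was higher by 0.20. Car9, a carbonic anhydrase known as a target of hypoxia signalling, gave 8.98, 8.74 and 8.70 against 6.14 to 7.21. Coch, cochlin, a secreted protein best known from the inner ear, gave 6.56, 6.17 and 6.36 against 4.33 to 4.98. The 129S2 arrays lay above all others in each of these 4 genes.

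A1cf, an RNA-binding partner of the apolipoprotein B editing enzyme, gave 9.29, 9.07 and 8.88 against 6.72 to 7.88. Apoc3, an apolipoprotein that slows triglyceride clearance, gave 9.05, 9.10 and 9.24 against 6.91 to 8.0. Mpzl2, an adhesion protein, gave 8.48, 8.37 and 8.5 against 6.53 to 7.24, and all 3 of its probe sets stood apart. Adat2, a tRNA deaminase, gave 8.39, 8.40 and 8.22 against 6.49 to 7.09. Blvrb, biliverdin reductase B of heme breakdown, gave 9.66, 9.58 and 9.61 against 8.10 to 8.59. The other 2 genes above by at least 1 unit were BC018473, with a gap of 2.10 that its second probe set did not share (0.08), and Gm16316 with 1.32. Next came Pik3c2g, a phosphoinositide kinase (0.95), Gm38983 (0.91), Tmprss4, a serine protease (0.89) and Dap (0.83). Both Dap probe sets stood apart, with differences of 1.24 and 1.22.

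**Figure D2:**
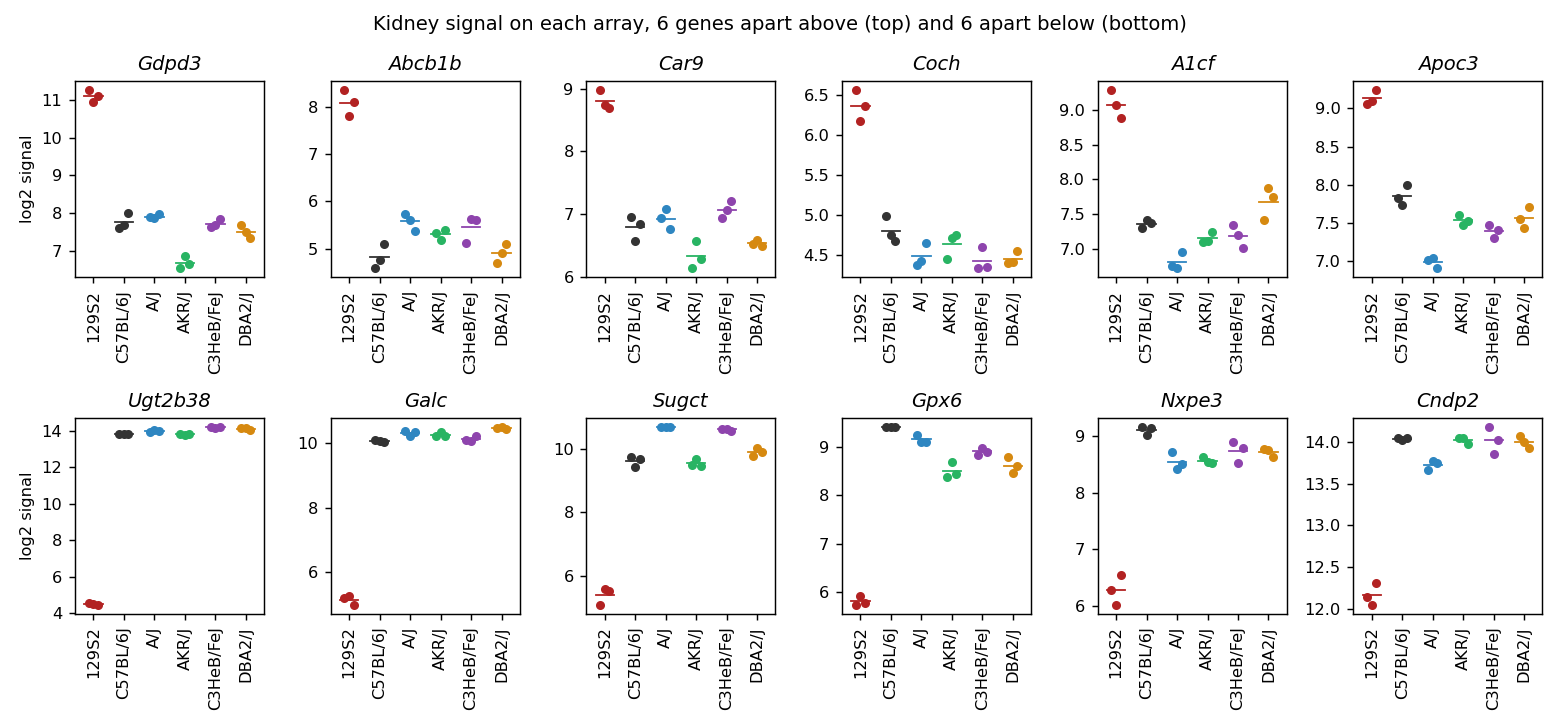
Log2 signal (y axis) of 12 genes on each of the 18 kidney arrays, grouped by strain on the x axis; points are arrays and short lines strain means. In every panel the 3 red points of 129S2 lie beyond all 15 others, from 4.45 to 4.53 against 13.78 to 14.24 for Ugt2b38.

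Other probe sets of the same gene give a second reading from the same RNA. Of the 698 genes, 398 had at least 1 further probe set, and in 238 of them, 59.8%, at least 1 also passed the test in the same direction. Over all 9010 genes with several probe sets this share was 27.8%. In 30 genes, 7.54%, a further probe set passed in the opposite direction. Of the 31 genes with a gap of at least 1, 15 had further probe sets, 9 had one that followed, and 4 had none that passed. For the rest of the 31, transcript level and probe match cannot be told apart. Of the 83 apart genes drawn by the rule for named genes, 63 stood apart whichever 1 of the 18 arrays was left out, all those of the 83 with a gap of at least 1 among them.

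The same contrast in the other tissues of these strains showed how far the kidney differences extended. Of the 698 genes, 289 (41.4%) did not pass in the same direction in any other tissue and 36 (5.16%) passed in all 5. In liver, 72 of the 251 genes above, 28.7%, were also higher in 129S2, where 5.75% of all genes were higher. Of the 447 below, 179 (40.0%) were lower in liver, against 6.69% of all genes. In lung the shares were 27.1% above and 30.6% below, against 6.37% and 6.89% of all genes. In testis they were 19.1% and 25.5%, against 9.29% and 7.77%. In heart they were 38 of 251 genes and 23.9%, against 3.11% and 5.38%, and in brain 14.3% and 18.6%, against 2.67% and 2.53%. In each tissue the genes apart in kidney passed in the same direction more often than all genes did, which was not put to a test. By the stricter rule 102 genes (0.561%) stood above all strains in liver and 123 (0.676%) below. Those shared with kidney were 26 above, 10.4% of kidney's and 25.5% of liver's, and 58 below, 13.0% of kidney's and 47.2% of liver's. In brain no gene stood apart by limma, although 947 genes (5.21%) passed there against the mean of the 5 strains and Gdpd3 differed by 3.23. The 129S2 brain array numbers differ between title and source name, while both give the same strain. Every gene in brain thus lacked a passing difference from at least 1 of the 5 strains, and which strain is not given here. Why no gene stood apart in brain was not tested. The brain values above and below, the counts of genes passing in no other tissue or in all 5, and the contrast of kidney with the other tissues rest on these labels. The tissues come in part from the same animals.

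Gdpd3 was higher in 129S2 in every tissue, by 5.66 in heart, 5.17 in liver, 4.66 in lung, 3.23 in brain and 1.41 in testis. Adat2 was higher by 0.89 to 1.70. On their main probe sets, Galc, Ankrd33b, Amacr, Lars2, Zfp931 and Dctn5 were lower in all 6 tissues, Amacr by -0.88 in testis and -1.60 in heart. In kidney the further probe sets of Galc and Ankrd33b did not follow, and those of Lars2 split. Further probe sets were not read in the other tissues. The kidney difference of Gdpd3 minus its mean difference in the other tissues was -0.43 (SE 0.264, limma adjusted p = 0.281), and that of Adat2 was 0.15 (limma adjusted p = 0.589).

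A second group did not pass in the same direction in any other tissue. Car9 differed by 2.07 in kidney and by -0.09 to 0.21 elsewhere, and the kidney difference exceeded the mean of the others by 2.07 (SE 0.0865, limma adjusted p = 2.36e-34). Apoc3 differed by 1.66 in kidney and 0.07 in liver. Methig1 differed by -3.50 in kidney and by -0.03 to 0.17 elsewhere, and Snx31 by -3.06 against -0.19 to 0.08. Nxpe3 was lower in kidney by -2.45 and was higher in brain, heart, lung and testis, by 0.25 to 0.80, with 0.16 in liver. For Apoc3, Methig1, Snx31 and Nxpe3 the kidney difference also departed from the mean of the others (limma adjusted p = 5.53e-29 for Apoc3 and lower for the rest). Other genes with a wide gap were shared with liver but not with all tissues. Ugt2b38 and Sugct were lower there by -4.47 and -2.95, and A1cf and Abcb1b were higher by 2.31 and 1.45. Sugct was also lower in brain, lung and testis, by -0.19 to -0.31, and A1cf higher in testis by 0.36, and Abcb1b higher in lung by 0.90. Over all genes the kidney difference was higher than the mean of the other tissues in 7.91% and lower in 9.97%. Among the genes apart in kidney, 190 of 251 above were higher and 357 of 447 below were lower; these were chosen for their kidney difference, so the counts are no independent support. Without array 3 of 129S2 kidney the counts over all genes were 757 higher and 932 lower.

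**Figure D3:**
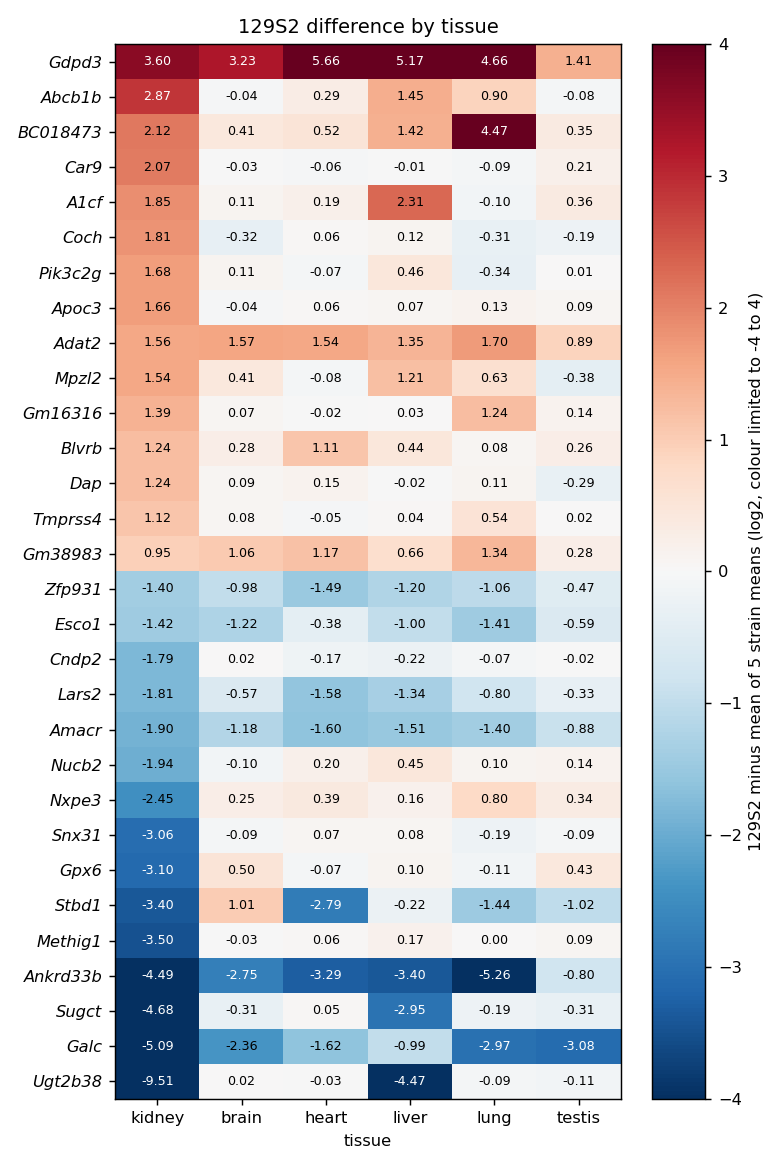
129S2 minus the mean of 5 strain means (log2) for the 15 genes with the widest gap above and the 15 below in kidney (rows), in kidney and 5 other tissues (columns); red is higher and blue lower in 129S2. Gdpd3 and Adat2 are red and Ankrd33b and Galc blue in every column, whereas Car9, Apoc3, Methig1 and Snx31 are coloured in kidney alone. Values are from the main probe set of each gene.

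Some of the genes were neighbours in the genome. Of the 698, 55 (7.88%) lay next to another gene apart in the same direction in the order of measured genes. Over all genes 1.38% were above and 2.46% below. A gene can have a neighbour on either side, so these single-gene shares are too low a baseline, and a like share was not computed. The 55 genes formed 27 runs, of which 1 held 3 genes: 4930556M19Rik, C1qtnf3 and Amacr on chromosome 15, all below. C1qtnf3, a secreted C1q-related protein, gave 9.98, 9.83 and 10.12 in 129S2 against 10.29 to 11.45. 4930556M19Rik lost its call without either array 2 or 3 of 129S2 or array 10 or 12 of C57BL/6J, with adjusted p values of 0.0807 to 0.138. In 19 neighbouring pairs the directions were opposite; the pairs named next were chosen after their values were seen. Cndp1, the secreted carnosine dipeptidase, was above the others (10.66, 10.51 and 10.48 against 9.03 to 9.96), next to Cndp2, below. Methig1 lay between Mettl7a1 and Mettl7a2, which were above by gaps of 0.40 and 0.79. Dap, above, lay next to Ankrd33b, below, and Hsd3b1, above, next to Hsd3b3, whose gap was -0.92, a call lost with the mean of its probe sets. Members of near-identical families, such as Methig1 with Mettl7a1 and Mettl7a2 or Hsd3b1 with Hsd3b3, can share probes, so the split of signal between them is uncertain.

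To place these genes in the work of the kidney, 48 lists of pathways, families and cell markers were counted against the same background, 14.5% higher and 16.2% lower. The 22 organic ion and drug transporters moved in both directions, with 7 higher, 11 lower, a median difference of -0.10 against 0.023 over all genes, and 4 above and 5 below all strains. Of the organic anion carriers, Slc22a8 (OAT3) was above all strains at 12.33, 12.26 and 12.27 against 10.89 to 11.89, and both of its probe sets stood apart. Slc22a7 (OAT2) was below all strains at 10.37, 10.54 and 10.59 against 11.16 to 12.00. The uptake carriers Slco1a6 and Slco3a1 were below by gaps of -0.43 and -0.30. Of the pumps that export to the urine, Abcb1b was above and Abcc2 (MRP2) below, at 7.94, 7.89 and 8.02 against 8.09 to 10.07. The Abcc2 call against every strain was lost without array 3 of 129S2 or array 2 of DBA2/J (adjusted p 0.055 and 0.068) or with quantile normalization (0.0515). Abcc4 (MRP4) was higher by 0.79, though its call against C57BL/6J was lost without array 4 of 129S2 or array 10 or 11 of C57BL/6J (adjusted p 0.0518 to 0.088).

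Among 23 glutathione transferases, 11 were higher and 2 lower, with a median difference of 0.13. Gstt2 was above all strains at 12.31, 12.28 and 12.28 against 11.36 to 11.89, and Gstm7 by a gap of 0.30. Gstm1 and Gstk1 also stood above, by gaps of 0.21 and 0.22. Their calls were each lost without any of 4 single arrays, array 2 of 129S2 among them, with adjusted p values up to 0.0899 for Gstm1 and 0.107 for Gstk1. Gsta2 had the largest difference of the family, 2.00, but C57BL/6J was close to 129S2 (12.21 ± 0.0266 against 12.51 ± 0.0778, SD, n = 3 each), and it did not stand apart. Of 29 targets of the oxidative stress regulator NRF2, 8 were higher and 10 lower; Nqo1, a quinone reductase, differed by 0.19, a call lost without any of the 3 arrays of 129S2 (limma adjusted p 0.0631 to 0.0909). Nfe2l2, which encodes NRF2, differed by -0.24, a call lost without array 4 (-0.16, limma adjusted p = 0.0577) or with the mean of its probe sets (-0.10). Of 28 cytochrome P450 genes 10 were higher and 1 lower. Cyp2d9 was above all strains at 11.86, 11.68 and 11.79 against 9.77 to 11.21. Cyp24a1, which inactivates vitamin D, was higher by 1.10, and its activating counterpart Cyp27b1 gave 0.13 (limma adjusted p = 0.635).

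Brush-border peptidases also split, with 3 of 10 higher and 4 lower. Enpep, the aminopeptidase that cleaves angiotensin II, was above all strains at 12.56, 12.49 and 12.62 against 11.05 to 11.97. Dpp4, a peptidase that inactivates incretins, was below at 8.92, 8.69 and 8.91 against 9.20 to 9.63, and its 3 further probe sets were also lower. Among 18 glucose, phosphate and sulphate transporters, 7 were higher and 2 lower, 1 without array 2 or array 4. The glucose carrier Slc2a2 stood above by a gap of 0.35 and the sulphate carrier Slc13a1 by 0.25. Of 19 amino acid and peptide transporters, 4 were higher and 5 lower, 3 of them without array 3.

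In metabolism, 5 of 9 genes of gluconeogenesis and ammonia formation were higher and 1 lower. Pck1, the gluconeogenic enzyme PEPCK, gave 12.88, 12.28 and 12.68 against 11.41 to 12.31, so its arrays overlapped the others. Its call against C57BL/6J was lost without array 2 or 4 of 129S2 or array 10 or 12 of C57BL/6J (adjusted p 0.0504 to 0.0927). Hao2, a peroxisomal hydroxy acid oxidase, was above all strains at 12.96, 12.90 and 12.88 against 11.56 to 12.53. Acadm, of fatty acid oxidation, was above by a gap of 0.26. PPAR alpha targets had 7 of 23 higher and 3 lower. Of 36 oxidative phosphorylation genes 2 were higher and 6 lower, with differences from -0.33 to 0.14, and without array 3 these counts were 1 and 2. Cholesterol synthesis had 3 of 19 higher and 7 lower; the lower count was 3 without array 2 of 129S2 and 4 without array 3.

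Of 15 proximal tubule markers 4 were higher and 4 lower, with a median of 0.03, and 2 were lower without array 4. Of 6 distal convoluted tubule markers 4 were higher, Pvalb by 0.86, and none stood apart. Loop of Henle markers had 4 of 7 higher and 1 lower, and 2 higher without array 4 of 129S2. Principal cell markers had 5 of 10 higher, but 1 or 2 without array 3 or 4 of 129S2. Of 8 intercalated cell markers 2 were higher, 1 without any array of 129S2, and 3 lower. Slc26a4 (pendrin) stood below, at 8.99, 8.70 and 8.62 against 9.03 to 10.04. This call was lost in the fit of all arrays with the animal as a block (adjusted p 0.0791). In bulk tissue, fewer cells of a type and less RNA per cell cannot be told apart.

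Macrophage markers were lower in 129S2 kidney in 7 of 10 cases, with none higher and a median difference of -0.41. The lower count was 5 without array 2 or array 4 of 129S2 and 6 without array 3. C1qa, a subunit of complement C1q, gave 7.34, 7.26 and 7.06 against 7.57 to 8.57. Mrc1, the mannose receptor, gave 5.57, 5.48 and 5.30 against 5.84 to 6.60, and Lyz2, lysozyme, gave 8.05, 8.40 and 7.96 against 8.37 to 9.15. All 3 stood below every strain, with 1 Lyz2 array inside the others' range, whereas Csf1r and Adgre1, which also define macrophages, gave 0.11 (limma adjusted p = 0.0974) and -0.08 (limma adjusted p = 0.505). The markers' mean level was 7.06 in 129S2 and 7.24 to 7.73 in the other strains. Lymphocyte markers had 1 of 9 higher and none lower. The part of macrophage number in other differences was not tested.

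Genes of MHC class II presentation ran the other way, with 9 of 11 higher and 1 lower, and 5 higher without array 3. H2-Ab1, a class II chain, was above all strains at 10.40, 10.41 and 10.37 against 8.20 to 9.95, on all 3 of its probe sets. H2-DMa, which helps load peptides, was above at 7.47, 7.57 and 7.48 against 6.30 to 7.13. H2-Aa, H2-Eb1 and Cd74 were higher than the mean of strains by 0.36, 0.47 and 0.65, but none stood above C57BL/6J by the test. The H2-Eb1 mean was 10.02 in 129S2 and 10.34 in C57BL/6J, lower than in that strain, H2-Aa was 10.49 against 10.72, and Cd74 was 11.01 against 10.92. H2-Aa no longer passed against the mean without array 3 (limma adjusted p = 0.0819). Ctss, cathepsin S, which trims the class II invariant chain, was below all strains at 7.75, 7.71 and 7.36 against 8.04 to 9.38. Because class II genes vary in sequence between strains, probe match and transcript level cannot be told apart here.

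Of 33 interferon-stimulated genes 15 were lower and 5 higher, with a median of -0.14; the lower count was 8 without array 2 or array 4, and the higher count 3 without array 3 or array 4. The mean level of the interferon list was 6.78 in 129S2 and 6.81 to 7.29 in the other strains. Gbp6, a guanylate-binding protein, stood below at 5.58, 5.68 and 5.83 against 6.38 to 8.13. Heat-shock genes were lower in 8 of 12 cases and higher in none, with a median of -0.49, and the count was 4 without array 3. The mean level of the heat-shock list was 10.68 in 129S2 and 10.71 to 11.68 in the other strains, so 129S2 was close to the lowest of them. Hsp90aa1, the inducible cytosolic HSP90, was lower by -0.73. It did not stand apart from A/J, with means of 11.68 in 129S2 and 11.86 in A/J.

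Among 15 genes of injury and fibrosis, 2 were higher and 7 lower. The lower count ran from 5 without array 2 of 129S2 to 8 without array 4. Havcr1 (KIM-1), a proximal tubule injury marker, gave 9.15, 9.04 and 9.22 against 6.11 to 8.78. A/J (8.69 ± 0.0845, SD, n = 3) and C3HeB/FeJ (8.40 ± 0.157) were closest, while AKR/J, C57BL/6J and DBA2/J lay between 6.25 and 6.51. Its call against A/J was lost without array 2 or 4 of 129S2 or array 2 or 3 of A/J (adjusted p 0.0661 to 0.0865). Lcn2, another injury marker, gave -0.33 (limma adjusted p = 0.0382), and the call was lost without any of 7 single arrays, with -0.22 (limma adjusted p = 0.287) without array 3 of 129S2. Col3a1, a fibrillar collagen chain, stood below at 8.62, 8.47 and 9.02 against 9.17 to 10.02. Fn1, fibronectin, was lower by -0.94. Of 20 androgen-responsive genes of male kidney 3 were higher and 6 lower. Kap, their best-known member, gave 14.82, 14.82 and 14.89 against 14.59 to 14.86. Gusb, beta-glucuronidase, gave 8.69, 8.67 and 8.59 against 9.15 to 12.15, lowest of a wide range over strains. Its call against C57BL/6J was lost without array 3 or 4 of 129S2 or array 10 of C57BL/6J (adjusted p 0.0512 to 0.0718).

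**Figure D4:**
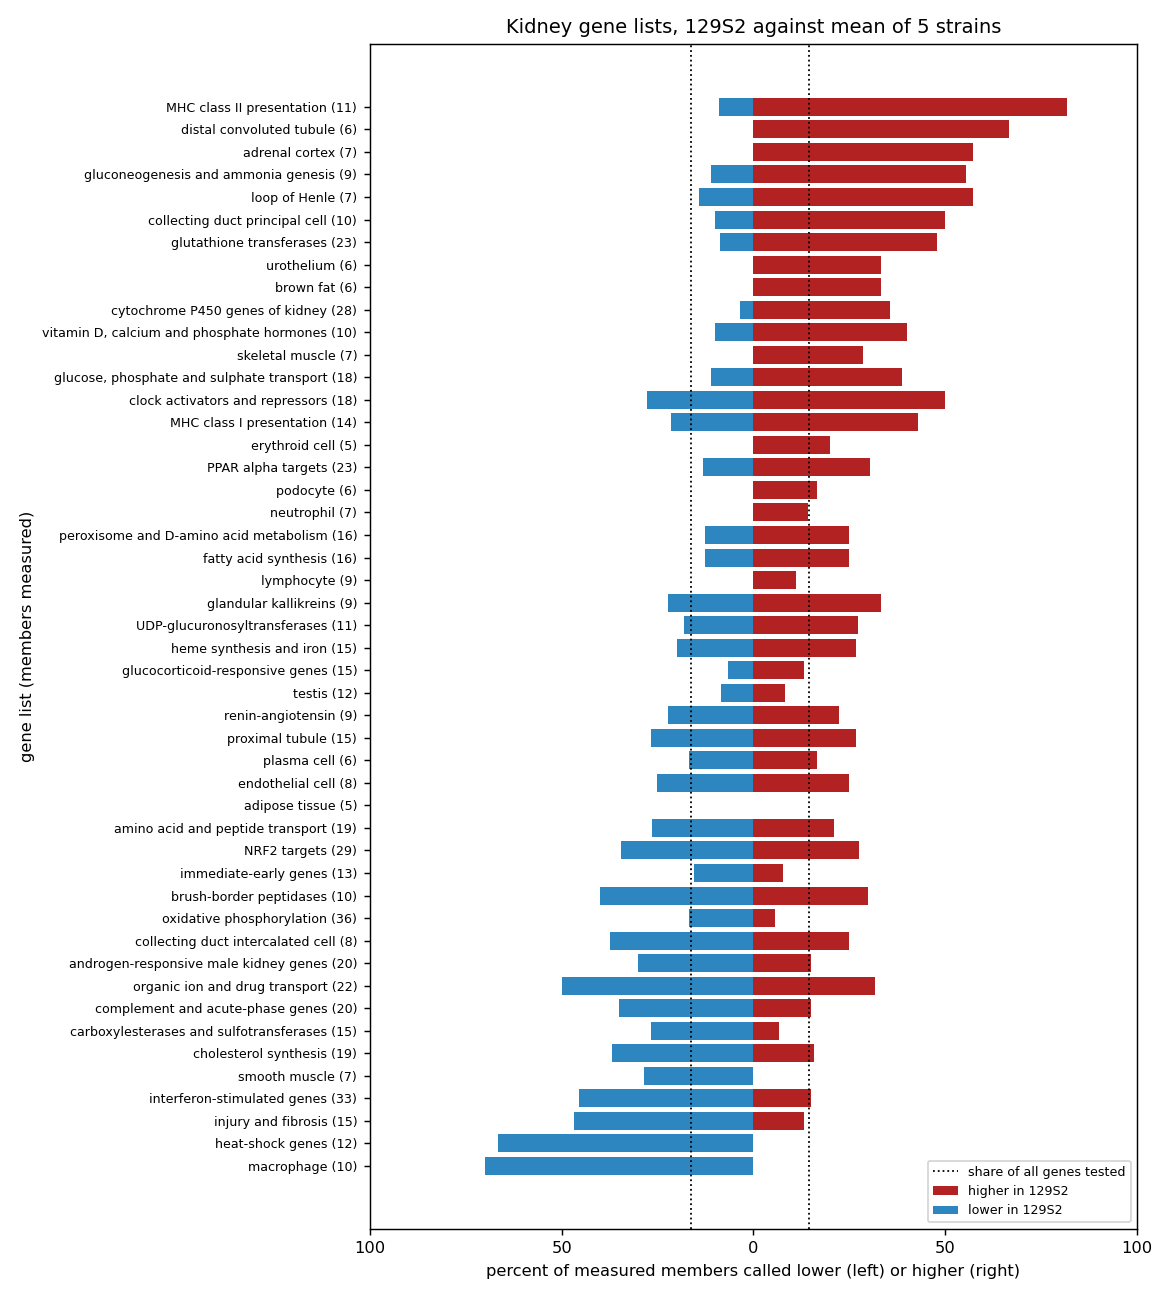
Percent of the measured members of each gene list called lower (blue, left) or higher (red, right) in 129S2 kidney than the mean of 5 strains, with the number measured in parentheses. Dotted lines mark the shares over all genes, 16.2% lower and 14.5% higher; MHC class II presentation reaches farthest right and macrophage markers farthest left.

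The circadian clock shows a list that moved without any member standing apart. Its activators ARNTL and CLOCK bind the E-box and drive the PER, CRY, REV-ERB (Nr1d1, Nr1d2) and PAR-domain factors (Dbp, Tef, Hlf), whose levels swing over the day. Of 18 clock genes 9 were higher in 129S2 and 5 lower, and Clock stood below all strains when array 2 was left out. The higher count was 7 without array 4 or with arrays 3 and 4 averaged. Dbp gave 11.06, 11.51 and 11.91 in 129S2, 1.55 above the mean of strains (SE 0.192, limma adjusted p = 1e-05). A/J was at 11.78 and AKR/J at 11.16, whereas C57BL/6J was at 8.55 and DBA2/J at 7.86. Arntl gave 6.53, 6.24 and 5.97, lower by -1.03, with A/J at 5.94, AKR/J at 6.50 and DBA2/J at 8.91. Ciart, a clock repressor, was higher by 1.04, Nr1d1 by 0.59 and Tef by 0.44, and Nfil3, Clock and Cry1 were lower by -1.05, -0.54 and -0.40. Cry1 averaged 4.13 over the kidney arrays, near the array's floor, and had no second probe set. On the main probe sets of Dbp and Arntl, 129S2 thus sat near A/J and AKR/J and far from DBA2/J and C57BL/6J. In liver Dbp was higher by 2.29 and Arntl lower by -1.14. Dbp gave 0.05 in brain, -0.17 in heart and 0.09 in lung, none of which passed, and was higher by 0.28 in testis. Arntl gave between 0.00 and 0.16 in brain, heart, lung and testis and did not pass in any of these 4 tissues. No source used here gives the hour of dissection, and its part in these values was not tested.

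**Figure D5:**
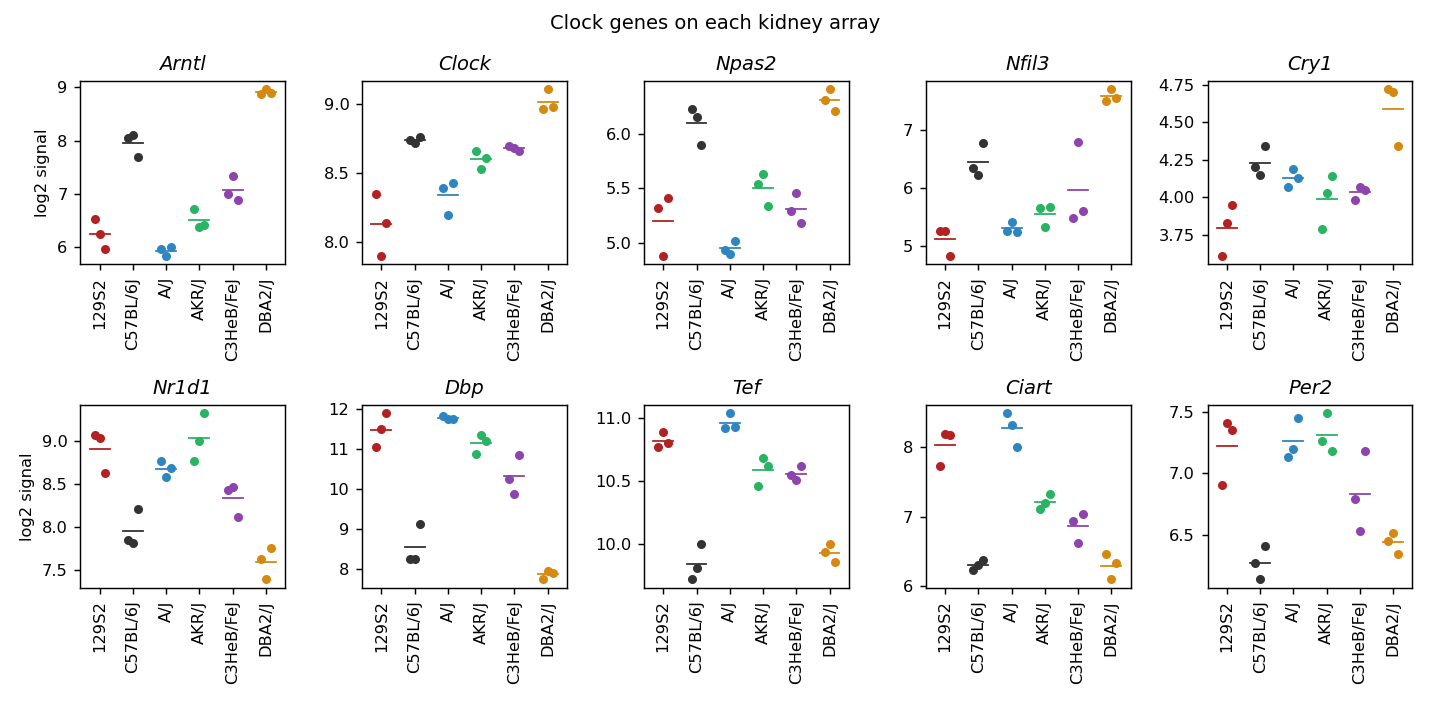
Log2 signal (y axis) of 10 clock genes on each of the 18 kidney arrays by strain (x axis); points are arrays and lines strain means. 129S2 lies close to A/J for Dbp (11.49 and 11.78) and Arntl (6.25 and 5.94), with DBA2/J at the other end.

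E-boxes were looked for in the reference promoters because these genes moved together. The letters CACGTG, which read the same on both strands, were found in 7.15% of 32851 RefSeq promoters and in 5 of 16 clock genes with a promoter: Bhlhe41, Ciart, Cry1, Per1 and Tef. The D-box TTATGTAA, searched on both strands, was found in Per3, and in 0.938% of all promoters. A core of antioxidant response elements, TGACNNNGC, was found in 8 of 26 NRF2 targets and 12.4% of all promoters. A gene was counted when any of its promoters matched, whereas the percentages are shares of promoters, so the counts and percentages are unlike measures. Promoters of 2 higher genes and 1 lower gene are shown, with the E-box in capitals, from GRCm38.p6: Ciart at chr3:95882179-95882478 (minus strand), Tef at chr15:81802423-81802722 (plus strand) and Cry1 at chr10:85185005-85185304 (minus strand). A match of these letters is a description and not a measured binding site.
Ciart: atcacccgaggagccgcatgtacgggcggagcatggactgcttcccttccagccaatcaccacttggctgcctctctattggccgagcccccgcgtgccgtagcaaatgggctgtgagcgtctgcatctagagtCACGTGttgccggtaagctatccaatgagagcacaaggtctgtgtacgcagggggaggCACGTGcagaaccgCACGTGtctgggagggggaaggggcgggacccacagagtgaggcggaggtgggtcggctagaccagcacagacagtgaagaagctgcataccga
Tef: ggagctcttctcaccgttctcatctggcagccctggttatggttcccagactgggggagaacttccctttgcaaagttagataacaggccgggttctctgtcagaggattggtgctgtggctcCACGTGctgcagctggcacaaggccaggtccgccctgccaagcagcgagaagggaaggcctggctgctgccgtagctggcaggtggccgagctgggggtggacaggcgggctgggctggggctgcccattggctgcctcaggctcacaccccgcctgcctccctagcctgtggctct
Cry1: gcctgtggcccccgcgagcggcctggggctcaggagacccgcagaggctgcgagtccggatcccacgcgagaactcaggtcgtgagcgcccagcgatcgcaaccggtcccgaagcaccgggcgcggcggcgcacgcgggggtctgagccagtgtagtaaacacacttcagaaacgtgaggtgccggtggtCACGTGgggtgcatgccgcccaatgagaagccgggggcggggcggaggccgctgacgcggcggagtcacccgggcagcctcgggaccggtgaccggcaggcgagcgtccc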

How the data were processed

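Kidneys and 5 other tissues of 6 strains were hybridised to oligonucleotide arrays. The authors deposited log2 signals per probe set, made with RMA per the submitters' processing notes (version and genome build not given in the sources used here). Of 45101 probe sets, 34945 named a single gene and were used; 64 control probe sets, 932 with several genes and 9160 with none listed were left out. Each of 18193 genes took its probe set with the highest mean over all 108 arrays, and 34741 of the probe sets used matched the GRCm38.p6 gene table, which gave names and gene order. Samples were grouped by their titles.

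In limma 3.58.1 (R 4.3.3), 1 mean per strain was fitted to the 18 kidney arrays with moderated variances, and p-values were adjusted by Benjamini-Hochberg over all genes, with a threshold of 0.05. 129S2 was set against the mean of the 5 strain means and against each strain. The tissue comparison was fitted on all arrays with the animal as a random block (correlation 0.0194). The fits were tested on simulated data. Pairs of a 129S2 array and a same-numbered array of another strain deviated with correlations of -0.195 to 0.146 (8 pairs). Pairs with other numbers gave -0.317 to 0.248 (37 pairs). Arrays of different strains were treated as unpaired, which these few correlations cannot settle. Named genes were the 15 widest gaps in each direction, up to 3 apart members of each list (or 2 called), a fixed set, runs of neighbours, and genes next to the gap threshold; further list members were named after their values were seen. Members and lists were chosen with earlier results of these data known. Array number limits the precision. Alternatives changed the prior, arrays, strains, probe sets, scaling, filter, weights and blocks.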

Additional observations from a re-analysis of the deposited data

Results flagged for a closer look

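The difference between 129S2 and the mean of the 5 strains was tested for being unequal in kidney and in the other tissues (limma interaction contrast on all arrays, adjusted over all genes). It was higher in kidney in 1439 genes and lower in 1813. Among the genes drawn by the naming rule and those chosen after their values were seen, not all of them described above, the following passed this test with a kidney difference at least 1 log2 unit from the mean difference of the other tissues, and values are kidney minus that mean. Gsta2, Cyp24a1, Dbp, Ciart and Ces1g among them did not stand apart from all 5 strains. On the negative side it was -8.57 for Ugt2b38, -3.94 for Sugct, -3.55 for Methig1, -3.27 for Gpx6, -3.02 for Snx31, -2.89 for Galc, -2.84 for Nxpe3 and -2.51 for Stbd1. Smaller negative values were -2.10 for Nucb2, -1.70 for Cndp2, -1.63 for Gusb, -1.62 for Fam107a, -1.56 for Smcp, -1.47 for Cftr, -1.39 for Ankrd33b, -1.26 for Apobec2 and -1.24 for Ces1g. On the positive side it was 2.36 for Abcb1b, 2.07 for Car9, 1.94 for Coch, 1.90 for Havcr1, 1.85 for Gsta2, 1.65 for Pik3c2g and 1.60 for Apoc3. Smaller positive values were 1.27 for A1cf, 1.24 for Dap, 1.18 for Mpzl2, 1.12 for Cyp24a1, 1.09 for Gm16316, 1.08 for Slc6a20a, 1.04 for Ciart, 1.04 for Acaa1b, 1.03 for Dbp, 1.00 for Tmprss4 and 1.00 for Cyp2d9. Most of these genes were chosen by their kidney difference, so a larger value in kidney than elsewhere was favoured by the choice.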

How the results depend on the processing

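The counts rest most on array 3 of 129S2. Leaving out each array in turn gave 1548 to 2693 genes higher and 1857 to 2962 lower than the mean of 5 strains, 169 to 273 apart above and 268 to 476 apart below. By at least 1 log2 unit it gave 11 to 12 above and 19 to 23 below. Leaving out each 129S2 kidney array gave 757 to 1222 genes with a higher and 932 to 1538 with a lower difference in kidney than in other tissues; every lowest count but 11 came without array 3. With arrays 3 and 4 averaged as 1 animal, 1565 genes were higher and 161 apart above. Genes above by at least 1 unit numbered 23 without strain C57BL/6J and 7 when genes averaging under 6 were dropped. Of the genes drawn by the naming rule, 2 that are not described above changed sign: Ighm to 0.02 with the mean of all its probe sets, and Nnt to -0.02 without strain C57BL/6J. With the replicate number as a random block, 259 genes were apart above and 454 below, and 694 of the 698 genes were shared. The main fit did not pair arrays by these numbers. Shared genes numbered 407 without array 3, 477 with the mean of probe sets, 479 with all arrays and the animal as a block, 486 with arrays 3 and 4 averaged and at least 525 otherwise, among the genes tested. Centring the arrays moved the median of all genes from 0.023 to 0.0158. Values near the array's floor have compressed differences. The causes were not tested.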
